A study of Mus musculus with 12 samples.

Results

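The 44 genes described here encode the machinery of the G2/M transition and of mitosis, and their RNA was followed across 12 LLC tumors, which form 4 groups of 3 tumors each. They were given as a named list, and each was read from the array by its symbol, at its brightest probe set where it had several. Of the 44, 43 were measured, among 18193 genes with a probe set, and all 43 passed the filter on dim genes that left 12735 genes for testing. The RNA of Ccnb1, which encodes cyclin B1, is not analysed here, while its promoter window is counted below.

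LLC (Lewis lung carcinoma) is 1 mouse lung cancer line, injected subcutaneously into female C57BL/6 mice (6 to 8 weeks old), hosts that keep their own immune cells. Treatment was allotted at a tumor volume of 60 to 80 mm3, and tumors were taken on day 19 after injection. 1D11_radiation tumors received the TGF-beta-neutralizing antibody 1D11 with radiation, radiation tumors received the isotype control antibody 13C4 with radiation, 1D11 tumors received 1D11, and control tumors received 13C4, so every tumor was exposed to an antibody. The sample characteristics give 5 fractions of 6 Gy, whereas the sample descriptions give 2 Gy, and the titles name cells whereas the source names give tumors. Nothing in the labels says more about the replicates than that they are separate samples, so p-values measure the spread between these tumors. The groups allow 3 questions: the effect of radiation, the effect of TGF-beta neutralization, and whether either depends on the other.

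Cells that enter mitosis switch on these genes together. In resting and early-cycle cells the DREAM complex holds them silent, and later the same MuvB core, joined by B-MYB and then by FOXM1, activates them. The MuvB subunit LIN54 contacts a short element near the transcription start, the CHR, and the factor NF-Y binds CCAAT boxes upstream of it. Cyclin B with CDK1 then drives entry into mitosis, the kinetochore and the spindle checkpoint hold chromosomes until they are attached, and the anaphase-promoting complex (APC/C) ends mitosis by marking cyclin B and securin for destruction.

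Promoters are shown because most of them carry the CHR letters, which the choice of the list did not use. The 6 printed are the first in alphabetical order among the members with values per tumor below whose window holds a CHR match. RefSeq promoters (build GRCm38.p6, 250 bases before to 50 after the start, 300 bases in all, 5′ to 3′ on the gene's own strand) were matched by symbol for 36 of the 44 members, 3 of them with 2 windows. The letters searched on both strands were TTTGAA and TTCGAA, counted together as the CHR, and CCAAT. Of these, TTCGAA reads the same on both strands, and CHR and CCAAT matches can share at most 1 base. Capitals mark CHR and CCAAT matches, which read TTCAAA and ATTGG where they lie on the opposite strand. The windows are Anln at chr9:22389157-22389456 (minus strand), Aurka at chr2:172370521-172370820 (minus), Ccnb2 at chr9:70421505-70421804 (minus), Cenpa at chr5:30666636-30666935 (plus), Cep55 at chr19:38054734-38055033 (plus) and Ckap2 at chr8:22185770-22186069 (minus).
Anln: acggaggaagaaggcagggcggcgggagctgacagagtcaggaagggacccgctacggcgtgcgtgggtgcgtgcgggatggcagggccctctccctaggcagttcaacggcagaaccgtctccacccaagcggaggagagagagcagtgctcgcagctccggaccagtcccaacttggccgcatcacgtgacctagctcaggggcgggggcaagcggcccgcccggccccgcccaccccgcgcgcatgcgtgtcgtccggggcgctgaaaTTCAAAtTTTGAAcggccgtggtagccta
Aurka: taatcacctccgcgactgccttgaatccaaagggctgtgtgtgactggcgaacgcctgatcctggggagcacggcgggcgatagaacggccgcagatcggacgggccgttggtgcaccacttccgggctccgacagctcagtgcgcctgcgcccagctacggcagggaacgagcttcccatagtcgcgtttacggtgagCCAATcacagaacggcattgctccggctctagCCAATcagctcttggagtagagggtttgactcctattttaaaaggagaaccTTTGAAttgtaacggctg
Ccnb2: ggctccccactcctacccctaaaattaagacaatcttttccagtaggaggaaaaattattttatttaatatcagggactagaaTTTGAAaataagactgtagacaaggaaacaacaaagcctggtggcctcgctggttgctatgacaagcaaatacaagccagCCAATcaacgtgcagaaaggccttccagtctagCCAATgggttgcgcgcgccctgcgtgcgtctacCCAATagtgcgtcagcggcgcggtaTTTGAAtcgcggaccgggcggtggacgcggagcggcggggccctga
Cenpa: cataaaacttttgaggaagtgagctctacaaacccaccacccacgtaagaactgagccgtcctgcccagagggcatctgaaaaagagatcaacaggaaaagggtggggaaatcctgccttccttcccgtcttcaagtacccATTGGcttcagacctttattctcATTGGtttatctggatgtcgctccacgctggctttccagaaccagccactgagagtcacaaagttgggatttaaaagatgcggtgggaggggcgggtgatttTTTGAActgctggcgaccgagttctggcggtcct
Cep55: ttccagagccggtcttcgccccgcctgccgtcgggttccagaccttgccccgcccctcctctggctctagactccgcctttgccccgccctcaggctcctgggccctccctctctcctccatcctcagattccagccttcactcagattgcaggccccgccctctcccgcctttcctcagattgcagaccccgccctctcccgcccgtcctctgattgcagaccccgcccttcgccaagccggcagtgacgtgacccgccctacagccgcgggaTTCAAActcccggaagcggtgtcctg
Ckap2: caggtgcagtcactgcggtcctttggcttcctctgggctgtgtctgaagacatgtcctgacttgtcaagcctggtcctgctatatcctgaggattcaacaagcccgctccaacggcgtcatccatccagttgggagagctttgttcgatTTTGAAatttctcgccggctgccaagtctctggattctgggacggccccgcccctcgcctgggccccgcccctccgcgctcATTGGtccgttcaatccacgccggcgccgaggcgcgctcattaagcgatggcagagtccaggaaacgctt

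In the Anln window 2 CHR matches began at positions 22 and 29, counted from the start site as 1. The Cep55 match began at position 25, and neither of these windows held a CCAAT box. The Ccnb2 window held 3 CCAAT boxes at positions -87, -54 and -21 and CHR matches at -167 and 5. Aurka had CCAAT at -51 and -19 with a CHR match at 33, and Cenpa had CCAAT at -109 and -86 with a CHR match at 17. In Ckap2 the CHR match lay further upstream, at -101, and the CCAAT box at -20. Over all 39 member windows, 82.1% held CHR letters, against 19.2% of 32851 promoters in the table. Within 50 bases of the start on either side the shares were 74.4% of member windows and 5.31% of all promoters. CCAAT was found in 76.9% of member windows and 37.4% of all promoters, with at least 2 boxes in 51.3% and 11.7%. Both motifs stood in 69.2% of member windows, against 7.52% of all. In all, 29 of the 36 members matched had a CHR match and 28 a CCAAT match. A match describes letters in the window and not a bound site.

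Array medians lay between 62.3 and 66.1 intensity units, and between any 2 arrays the largest gap in sorted log2 values was 0.129. Of 5 carcinoma markers, Krt8 and Krt18 had log2 intensities of 11.7 to 12.6 and 11.7 to 12.4, Epcam of 6.83 to 7.43 and Krt19 of 4.90 to 6.17, and the mean of Cdh1 lay under the limit of log2 5.37 below which genes were not tested. Of 4 lung epithelium markers, Sftpb lay at 6.83 to 7.29, and Nkx2-1, Sftpc and Scgb1a1 had means under that limit. Skeletal muscle markers differed between tumors: the mean centred log2 value of 10 markers was 2.12 in radiation replicate 3 and 1.13 in control replicate 1. It lay between -1.53 and 0.67 in the other 10 tumors. The same 2 tumors had the lowest array weights, 0.36 and 0.30. The counts and medians against control, with the single genes they move most, are also given without them. Other marker lists had high values in 1D11 tumors. The value of 4 keratinocyte markers was 1.04 and 2.29 in 1D11 replicates 1 and 3, and -0.45 to -0.18 in the others. For 2 adipocyte markers it was 1.31 and 0.95 there, and -0.98 to 0.51 in the others. For 4 mast cell markers it was 0.96, 0.89 and 1.04 in 1D11 tumors, and -1.04 to 0.24 in the others.

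The 3 control tumors stood far apart in these genes, and the 9 treated tumors lay close together. The mean of the 43 members, each centred on its own mean over 12 tumors, was 0.07, -0.05 and 0.11 in 1D11_radiation tumors, 0.05, 0.09 and 0.02 in radiation tumors, 0.02, 0.04 and 0.02 in 1D11 tumors and 0.12, -0.16 and -0.32 in control tumors (log2). Control replicate 1 was therefore the highest of the 12 tumors and control replicate 3 the lowest. In single genes, control replicate 3 was the lowest of the 12 tumors in 36 of 43 members and control replicate 1 the highest in 15. Control replicate 2 lay below the gene's mean in 42 members. The median SD of a member within a group was 0.096 in 1D11_radiation, 0.081 in radiation, 0.065 in 1D11 and 0.239 in control tumors. Over all genes tested the corresponding medians were 0.089, 0.109, 0.092 and 0.124, so the wide spread of control tumors was larger in these genes than in the typical gene. The control SD was the largest of the 4 in 37 of 43 members. All 3 tumors of a group lay inside the range of the control tumors in 24 members for 1D11_radiation, 17 for radiation and 25 for 1D11. In whole-tumor RNA, fewer cells in G2 or mitosis and less of these RNAs per cell cannot be told apart.

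**Figure D1:**
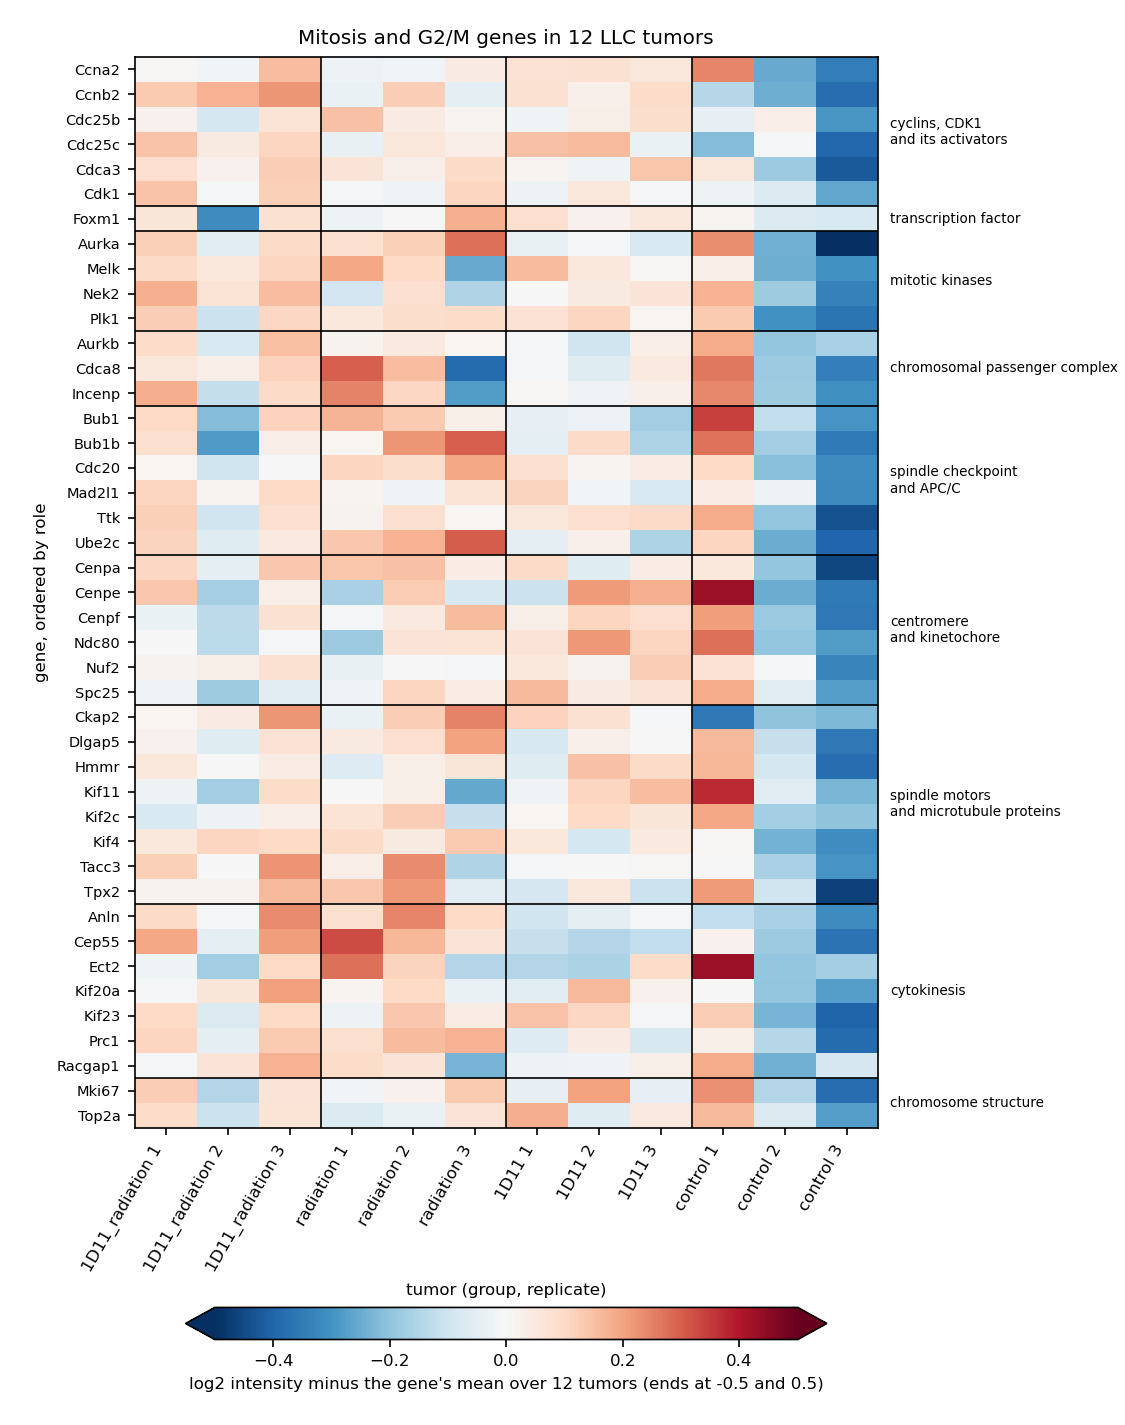
Each row is a member, each column a tumor, and the colour is the log2 intensity minus the gene's mean over 12 tumors, with the colour scale ending at -0.5 and 0.5. The column of control replicate 3 is the lowest of the 12 in 36 of 43 genes, and control replicate 1 is the highest in 15.

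Radiation with the 13C4 antibody, set against 13C4 alone, gave higher means in nearly all members, by small amounts, and none passed the test over all genes. Of 43 members, 42 had a higher mean in radiation tumors and Kif11 had a lower one. The median log2 change was 0.18, against -0.00 over all genes tested, of which 49.6% had higher means. None was called at an adjusted p under 0.05 (limma, Benjamini-Hochberg over 12735 genes), where 2.39% of all genes were called. At an unadjusted p under 0.05, 13 members were higher and none lower, a share to set against 18.7% of all genes in either direction. In 8 members all 3 radiation tumors lay above all 3 control tumors, as in 10.6% of all genes: Anln, Ccnb2, Cdk1, Cep55, Ckap2, Kif4, Prc1 and Ube2c.

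Those values rest on the control tumors. Without control replicate 1 the median was 0.29, all 43 members were higher, and 12 (27.9%) were called, against 3.42% of all genes: Anln, Aurka, Ccna2, Ccnb2, Cdc20, Cdca3, Cenpa, Cep55, Kif4, Plk1, Prc1 and Ube2c. Without control replicate 3 the median was 0.07, 32 members were higher and none was called. Without 1D11_radiation replicate 2, which enters only through the shared estimate of spread, 1 member was called, Anln, against 2.67% of all genes. With both muscle-rich tumors left out, control replicate 1 and radiation replicate 3, the median was 0.30 and 10 members (23.3%) were called, against 4.47% of all genes: Aurka, Ccnb2, Cdc20, Cdca8, Cenpa, Cep55, Kif4, Melk, Plk1 and Ube2c. Over the 43 members, 13 changed sign in at least 1 of 22 alternatives, 10 of them without control replicate 3.

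**Figure D2:**
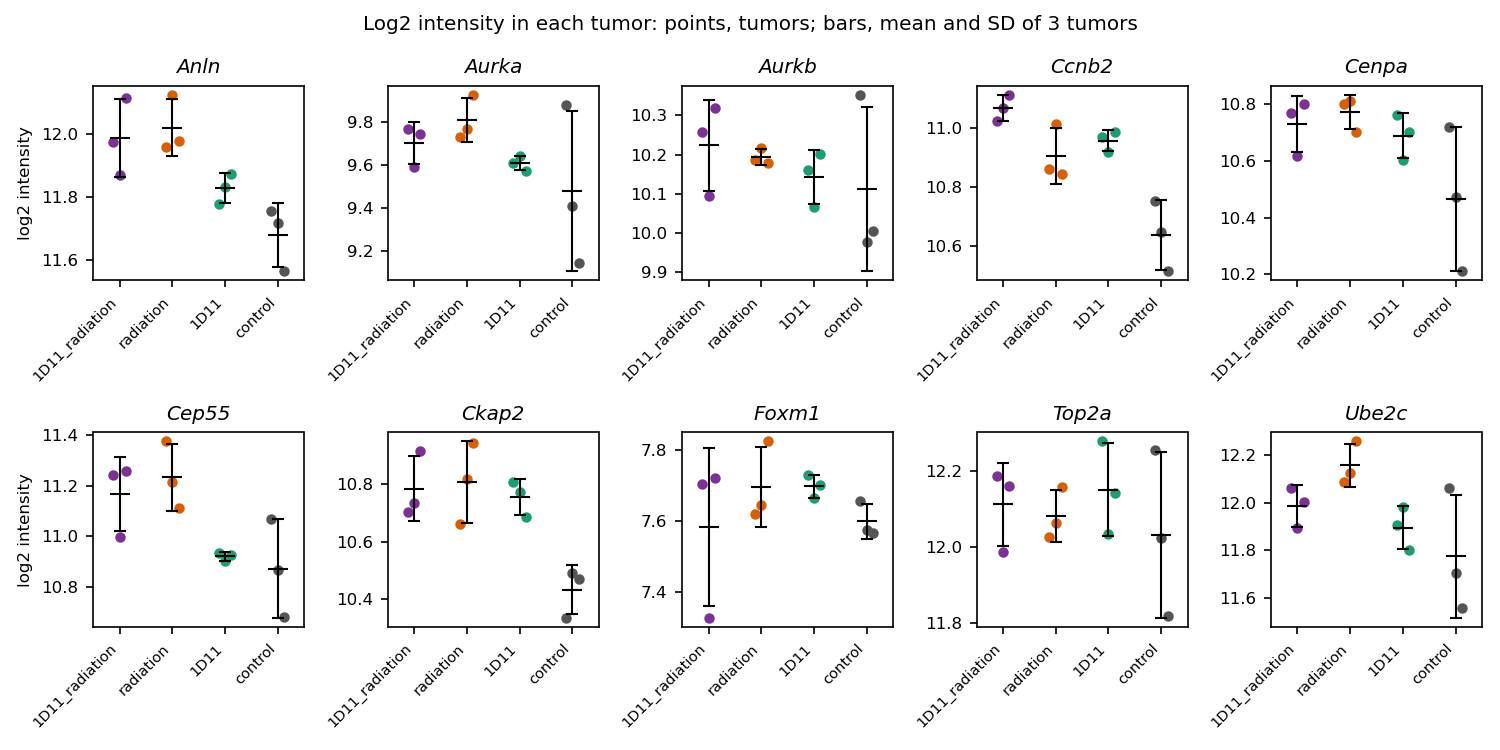
Log2 intensity of 10 members in each tumor, by group, with the mean and SD of 3 tumors as bars. All 3 radiation tumors lie above all 3 control tumors in Anln, Ccnb2, Cep55, Ckap2 and Ube2c, and control tumors spread widely in Aurka, Cenpa and Top2a.

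Among the cyclins, CDK1 and its activators, 6 members were measured and all 6 had higher means in radiation than in control tumors, with a median log2 change of 0.20. Ccnb2, which encodes cyclin B2, a partner of CDK1, had log2 intensities of 11.02, 11.07 and 11.11 in 1D11_radiation tumors, 10.86, 11.01 and 10.84 in radiation tumors, 10.97, 10.92 and 10.99 in 1D11 tumors and 10.75, 10.65 and 10.51 in control tumors. Each of the 9 treated tumors lay above each of the 3 control tumors. The log2 change of Ccnb2 was 0.27 ± 0.07 (SE, n = 3 tumors per group) in radiation against control (adjusted p = 0.084, limma). For Cdc25c and Cdc25b, phosphatases that activate CDK1, the changes were 0.22 ± 0.09 and 0.17 ± 0.09. Cdca3, a trigger of mitotic entry that feeds WEE1 to destruction, had 0.24 ± 0.10 and Cdk1 itself 0.14 ± 0.08. Ccna2, which encodes cyclin A2, had the smallest change of the group, 0.12 ± 0.13.

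The transcription factor of the list, Foxm1, was the member whose control tumors lay closest together. Its log2 intensity was 7.70, 7.33 and 7.72 in 1D11_radiation tumors, 7.62, 7.64 and 7.82 in radiation tumors, 7.73, 7.66 and 7.70 in 1D11 tumors and 7.66, 7.57 and 7.57 in control tumors. The lowest Foxm1 value was that of 1D11_radiation replicate 2, and all pairs of groups overlapped except 1D11 and control, which lay just apart. The log2 change was 0.10 ± 0.10 in radiation against control (adjusted p = 0.658, limma).

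Of 4 mitotic kinases, all had higher means in radiation than in control tumors. Aurka encodes Aurora A, which matures centrosomes and builds the spindle. Its log2 intensity was 9.77, 9.59 and 9.74 in 1D11_radiation tumors, 9.73, 9.77 and 9.93 in radiation tumors, 9.61, 9.64 and 9.58 in 1D11 tumors and 9.88, 9.41 and 9.15 in control tumors. All radiation tumors lay above control replicates 2 and 3, and 1 of them above control replicate 1, so the groups overlapped. The change was 0.33 ± 0.15 (adjusted p = 0.256, limma), and 0.53 without control replicate 1 (adjusted p = 0.0209, limma). Without control replicate 3 the Aurka change was 0.16 (adjusted p = 0.545, limma). Plk1, a kinase of mitotic entry, spindle and cytokinesis, had 0.26 ± 0.12, Melk, a kinase induced in dividing cells, 0.18 ± 0.12, and Nek2, which separates centrosomes, 0.06 ± 0.11. Without both muscle-rich tumors Melk had 0.42 (adjusted p = 0.0197, limma).

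The chromosomal passenger complex corrects faulty attachments between kinetochores and microtubules, and its 3 members had changes within 1 standard error in radiation against control over all tumors. Aurkb, the kinase of the complex, had log2 intensities of 10.26, 10.09 and 10.32 in 1D11_radiation tumors, 10.19, 10.22 and 10.18 in radiation tumors, 10.16, 10.07 and 10.20 in 1D11 tumors and 10.35, 9.98 and 10.01 in control tumors. Control replicate 1 was the highest of the 12 and control replicate 2 the lowest, and the change in radiation against control was 0.08 ± 0.10. Incenp, its scaffold, and Cdca8, which encodes borealin, had changes of 0.11 ± 0.16 and 0.11 ± 0.17. Without both muscle-rich tumors Cdca8 was called in radiation against control, at 0.49 (adjusted p = 0.0188, limma), and in the main effect described below, at 0.28 (adjusted p = 0.0134), while Incenp had 0.42 (adjusted p = 0.0553) and Aurkb 0.21 (adjusted p = 0.185). Cdca8 lay at 10.89, 10.74 and 10.21 in radiation tumors and at 10.85, 10.41 and 10.25 in control tumors.

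All 6 genes of the spindle checkpoint and the APC/C had higher means in radiation than in control tumors, with a median log2 change of 0.22. Ube2c, the ubiquitin-conjugating enzyme that works with the APC/C, had log2 intensities of 12.06, 11.89 and 12.004 in 1D11_radiation tumors, 12.09, 12.13 and 12.26 in radiation tumors, 11.91, 11.98 and 11.80 in 1D11 tumors and 12.06, 11.71 and 11.56 in control tumors. The radiation tumors of Ube2c were the highest 3 of the 12, and the change was 0.38 ± 0.12 (adjusted p = 0.107, limma). Cdc20, the APC/C activator that the checkpoint holds back, had 0.27 ± 0.09. The checkpoint proteins Bub1b (0.26 ± 0.16), Ttk (0.19 ± 0.13), Bub1 (0.14 ± 0.15) and Mad2l1 (0.12 ± 0.09) had smaller changes relative to their errors.

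Centromere and kinetochore genes had the smallest median of the roles, 0.08 over 6 members. Cenpa encodes the histone H3 variant that marks centromeres. Its log2 intensity was 10.77, 10.62 and 10.80 in 1D11_radiation tumors, 10.80, 10.81 and 10.70 in radiation tumors, 10.76, 10.60 and 10.70 in 1D11 tumors and 10.72, 10.47 and 10.21 in control tumors. Control replicate 1 lay within the range of the radiation tumors and control replicates 2 and 3 below it, and the change was 0.31 ± 0.11 (adjusted p = 0.174, limma). The motor Cenpe (0.02 ± 0.18) and the NDC80 complex members Ndc80, Nuf2 and Spc25 (0.05 to 0.09) had changes within 1 standard error. Without control replicate 1 Cenpe had 0.26 and those 3 had 0.15 to 0.22, at adjusted p of at least 0.210 (limma). Without control replicate 3 these genes were all negative: Cenpe -0.13, Ndc80 -0.058, Nuf2 -0.047 and Spc25 -0.023.

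Of 8 spindle motors and microtubule proteins, 7 had higher means in radiation than in control tumors. Ckap2, a microtubule-associated protein of the spindle, had log2 intensities of 10.70, 10.73 and 10.91 in 1D11_radiation tumors, 10.66, 10.82 and 10.94 in radiation tumors, 10.81, 10.77 and 10.68 in 1D11 tumors and 10.34, 10.49 and 10.47 in control tumors. Each of the 9 treated tumors lay above each control tumor, and control replicate 1, the highest tumor over the list, was the lowest in Ckap2. The change of Ckap2 was 0.37 ± 0.09 in radiation against control (adjusted p = 0.0507, limma), the smallest adjusted p of any member in that comparison. Kif4, a chromosome-bound kinesin, had 0.27 ± 0.08. Kif11, the kinesin that pushes spindle poles apart, was the 1 member with a lower mean in radiation tumors, with a change of -0.10 ± 0.14 that was 0.069 without control replicate 1.

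All 7 cytokinesis genes had higher means in radiation than in control tumors, with a median of 0.22. Anln encodes anillin, a scaffold of the contractile ring. Its log2 intensity was 11.98, 11.87 and 12.12 in 1D11_radiation tumors, 11.96, 12.13 and 11.98 in radiation tumors, 11.78, 11.83 and 11.88 in 1D11 tumors and 11.76, 11.72 and 11.56 in control tumors. Each radiation tumor lay above each control tumor, and the change was 0.34 ± 0.08 (adjusted p = 0.053, limma). Cep55 encodes a midbody protein that recruits the machinery of final abscission, and its log2 intensity was 11.24, 10.999 and 11.26 in 1D11_radiation tumors, 11.38, 11.21 and 11.11 in radiation tumors, 10.94, 10.90 and 10.93 in 1D11 tumors and 11.07, 10.87 and 10.68 in control tumors. The 1D11 tumors of Cep55 lay within the control range, while each radiation tumor lay above it, with a change of 0.36 ± 0.11 (adjusted p = 0.103, limma). Prc1, which bundles microtubules of the central spindle, had 0.30 ± 0.10, and Ect2, which activates RhoA for the contractile ring, 0.06 ± 0.17.

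The 2 genes of chromosome structure were called in none of the 7 comparisons. Top2a, topoisomerase II alpha, which untangles sister chromatids, had log2 intensities of 12.19, 11.99 and 12.16 in 1D11_radiation tumors, 12.03, 12.06 and 12.16 in radiation tumors, 12.28, 12.03 and 12.14 in 1D11 tumors and 12.26, 12.02 and 11.82 in control tumors. The values of all 4 groups overlapped, and the change was 0.05 ± 0.11. Mki67, which coats mitotic chromosomes and is the source of the Ki-67 label for dividing cells, had 0.15 ± 0.14 (adjusted p = 0.618, limma).

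**Figure D3:**
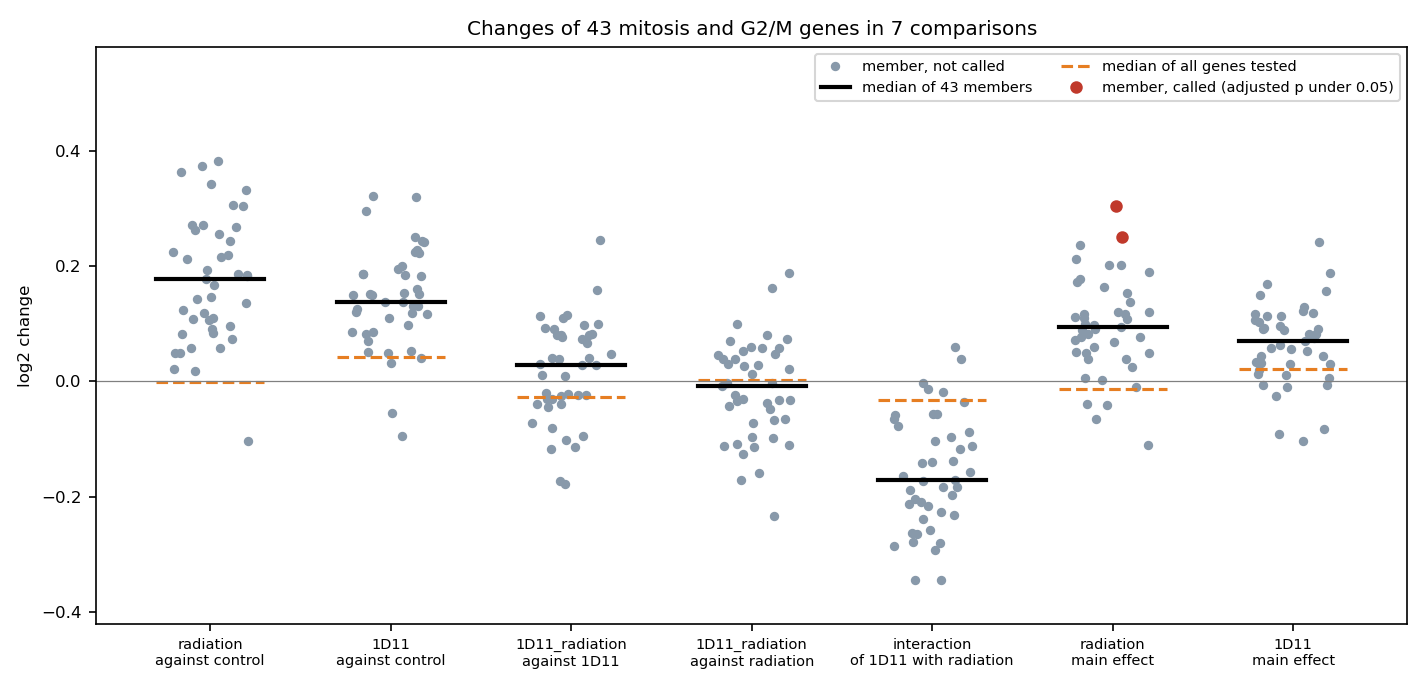
Log2 change of the 43 members in 7 comparisons, with 1 point per gene, the members' median as a black bar and the median of all genes tested as a dashed bar. Both called members lie in the radiation main effect, and the medians against control are 0.18 for radiation and 0.14 for 1D11.

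Across both antibodies (radiation main effect, 6 irradiated tumors against 6 that were not irradiated), both cytokinesis genes Anln and Cep55 rose. Anln rose by 0.25 ± 0.06 on the log2 scale, or 1.19-fold (adjusted p = 0.0276, limma, 95% interval 0.12 to 0.38). Cep55 rose by 0.30 ± 0.08, or 1.23-fold (adjusted p = 0.0370, limma, 95% interval 0.14 to 0.47). Neither gene separated the irradiated tumors fully from the others. The next genes were Ccnb2 at 0.19 ± 0.05 (adjusted p = 0.054) and Ckap2 at 0.20 ± 0.06 (adjusted p = 0.0729). Of 43 members 38 had higher means and 5 lower ones, 2 were called, or 4.65%, where 7.26% of all genes were called, and 7 had an unadjusted p under 0.05, all higher, where 24.3% of all genes did. The median change was 0.10, against -0.01 over all genes, of which 45.3% had higher means. The members with lower means were Kif11 (-0.11 ± 0.10), Ndc80 (-0.06 ± 0.09), Spc25 (-0.04 ± 0.07), Cenpe (-0.04 ± 0.13) and Foxm1 (-0.01 ± 0.07). Ndc80 had 1 probe set, and every other, dimmer probe set of the rest had a positive main effect. These were 0.092 and 0.040 for Kif11, 0.038 for Spc25, 0.028 for Cenpe and 0.066, 0.16 and 0.027 for Foxm1. Some members with higher means had negative values at dimmer probe sets above the filter. These were -0.039 and -0.048 for Tpx2, -0.12 and -0.13 for Cenpf, -0.18 for Nek2, -0.0049 for Aurkb and -0.011 for Bub1b. A further probe set was positive for Tpx2 (0.13), Nek2 (0.11) and Bub1b (0.12).

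Both calls depended on single tumors. Anln kept its call without 1D11 replicate 3, control replicate 1 or 2, radiation replicate 3 or 1D11_radiation replicate 2, and missed it without any of the other 7. Over all 12 its change was 0.22 to 0.28, at adjusted p up to 0.0715. Cep55 kept its call without control replicate 1, radiation replicate 3 or 1D11_radiation replicate 2, and missed it without any of the other 9. Over all 12 its change was 0.26 to 0.35, at adjusted p up to 0.0933. Without control replicate 1, 8 members (18.6%) were called, against 7.62% of all genes: Anln, Aurka, Ccnb2, Cenpa, Cep55, Kif4, Prc1 and Ube2c. Without control replicate 3 the median was 0.04 and none was called.

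**Figure D4:**
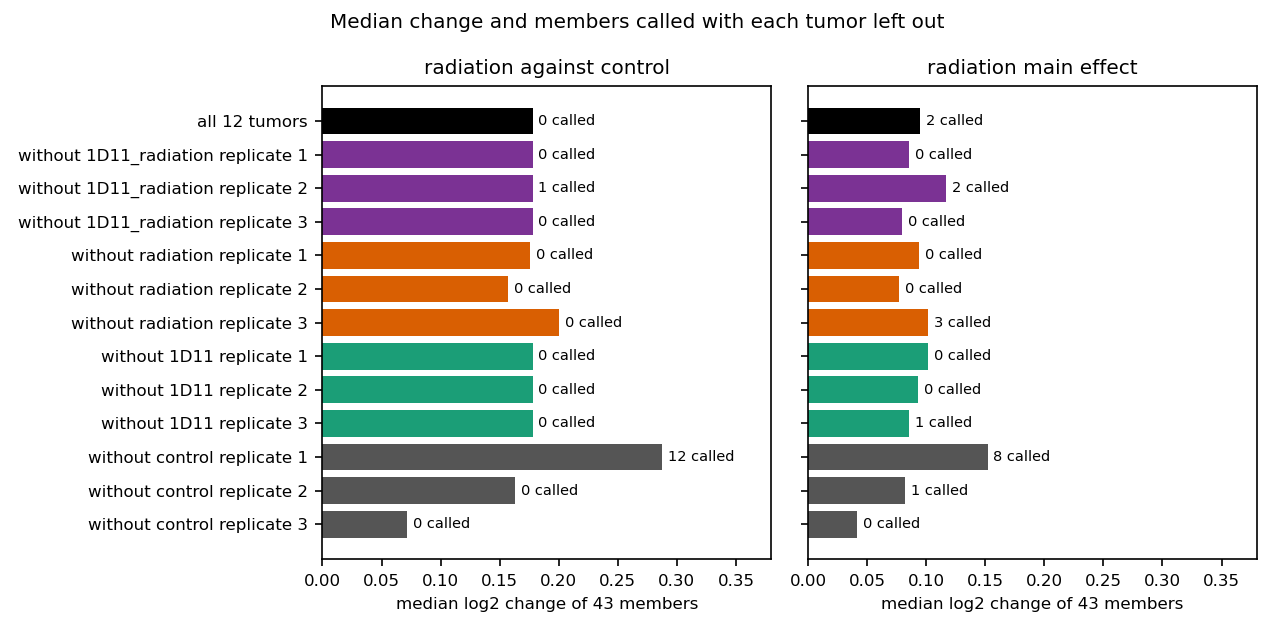
Median log2 change of 43 members with all 12 tumors and with each tumor left out, as bars, for radiation against control and for the radiation main effect, with the number of members called beside each bar. In radiation against control the medians run between 0.07 without control replicate 3 and 0.29 without control replicate 1.

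Neutralizing TGF-beta without radiation (1D11 against control) also gave higher means in most members, and none passed. Ccnb2 had a log2 change of 0.32 ± 0.07 (adjusted p = 0.141, limma), Ckap2 of 0.32 ± 0.09 (adjusted p = 0.184) and Cdc25c of 0.30 ± 0.09 (adjusted p = 0.219). Of 43 members, 41 had higher means in 1D11 tumors, and Ect2 (-0.09 ± 0.17) and Bub1 (-0.06 ± 0.15) had lower ones. These 2 changes were 0.11 and 0.13 without control replicate 1, and each was -0.19 without control replicate 3. The median was 0.14, against 0.04 over all genes, of which 62.1% had higher means. No member was called, where 0.0157% of all genes were, and 4 had an unadjusted p under 0.05, where 14.1% of all genes did. In Anln, Ccnb2, Ckap2 and Foxm1 all 3 1D11 tumors lay above all 3 control tumors, as in 12.1% of all genes. The 1D11 and the radiation comparison share the control tumors, so their values are not independent. Without control replicate 1 the median was 0.26, and without control replicate 3 it was 0.04, with 31 members higher.

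Within 1D11-treated tumors, radiation (1D11_radiation against 1D11) left the members divided, with 25 higher and 18 lower means and a median of 0.03, against -0.03 over all genes. Cep55 had the largest change, 0.25 ± 0.11 (adjusted p = 0.305, limma), and each 1D11_radiation tumor lay above each 1D11 tumor. Anln had 0.16 ± 0.08 and Ccnb2 0.11 ± 0.07. On the lower side stood the kinetochore genes Spc25 (-0.17 ± 0.10) and Ndc80 (-0.18 ± 0.13), with all 1D11_radiation tumors below all 1D11 tumors, and Foxm1 (-0.11 ± 0.10, and 0.014 without 1D11_radiation replicate 2). In all, 4 of 43 members lay fully higher, where 9.59% of all genes did, and 3 fully lower, where 16.5% did. No member was called, where 0.0785% of all genes were, and 1 had an unadjusted p under 0.05, where 15.5% of all genes did. Of 6 kinetochore genes 5 had lower means here, and 6 of 7 cytokinesis genes had higher ones, where 42.4% of all genes did. These are 2 of the roles, and the difference between them was not tested.

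Among irradiated tumors, 1D11 (1D11_radiation against radiation) gave 19 higher and 24 lower means, where 50.8% of all genes were higher. The median was -0.01, against 0.00 over all genes. The balance of the members turned to 29 higher and 14 lower, with a median of 0.04, without 1D11_radiation replicate 2. Ccnb2 had the smallest unadjusted p, with a change of 0.16 ± 0.07 (adjusted p = 0.840, limma) and no overlap between the groups. In all, 2 members lay fully higher, where 7.30% of all genes did, and 2 fully lower, where 6.12% did. Nek2 (0.19 ± 0.11) and Racgap1, a GTPase-activating protein of the central spindle (0.10 ± 0.11), were the next higher ones. Cdc20 (-0.16 ± 0.09), Bub1b (-0.23 ± 0.16) and Ube2c (-0.17 ± 0.12) were the lower members with the smallest p. No member and 0% of all genes were called (limma), and no member had an unadjusted p under 0.05, where 5.4% of all genes did.

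The interaction, the effect of radiation under 1D11 minus that under 13C4, was negative in 41 of 43 members, all but Racgap1 and Nek2. Its median was -0.17, against -0.03 over all genes, of which 42.2% were positive. Ckap2 (-0.34 ± 0.12, adjusted p = 0.562, limma) and Cdc20 (-0.34 ± 0.13, adjusted p = 0.616) had an unadjusted p under 0.05, where 7.48% of all genes did. Spc25 had -0.26 ± 0.15. No member and 0% of all genes were called. The interaction also contains the control tumors: without control replicate 3 the median was -0.08 with 15 members positive, and without control replicate 1 it was -0.27 with none positive.

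Over both radiation states, 1D11 (1D11 main effect) gave 36 higher and 7 lower means, with a median of 0.07 against 0.02 over all genes. Of all genes 59.0% had higher means. Ccnb2 had 0.24 ± 0.05 (adjusted p = 0.253, limma), Cdc25c 0.19 ± 0.07 and Ckap2 0.15 ± 0.06, the 3 members with an unadjusted p under 0.05, where 12.5% of all genes had one. The lower members with the smallest p were Ect2 (-0.10 ± 0.12), Bub1b (-0.09 ± 0.11) and Bub1 (-0.08 ± 0.10). No member was called, where 0.00785% of all genes were. Leaving out control replicate 1 moved the median to 0.13, and leaving out control replicate 3 moved it to 0.02.

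The members varied together over the 12 tumors, largely through the control tumors. The median Pearson r over 903 pairs was 0.64, and 98.8% of pairs had r above 0. Over the 9 treated tumors alone the median was 0.20, with 69.5% of pairs above 0. Over 86 other mitosis genes the median r was 0.32 in 12 and 0.16 in 9 tumors, over 34 G1/S genes 0.35 and 0.23, and over all genes tested 0.013 and 0.015. These values are a description, and the genes of a list share their arrays. Against the mean of the other members, r ran up to 0.97 for Ttk, a spindle checkpoint kinase, and 0.95 for Plk1 and Kif23, a motor of the central spindle. It was above 0.5 in 41 of 43 members, and the exceptions were Ckap2 (0.37) and Foxm1 (0.41).

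Of 12692 genes outside the list, those whose log2 values followed the members' mean most closely were Birc5 (r = 0.94 over 12 tumors), Rbm20 (0.92), Arhgap19 (0.92), Kpna2 (0.91), Sgo1 (0.90), Klhdc4 (0.90), Zdhhc2 (0.89), Smarca4 (0.88), Psmd2 (0.88) and Ercc6l (0.88). Birc5 encodes survivin, the chromosomal passenger subunit missing from the list, Sgo1 the protector of centromeric cohesion, and Kpna2 an importin. All 10 were picked as the highest of the genes searched.

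Most of the members with several probe sets varied alike on them. Of the 43 members 29 had other probe sets, 54 in all, and 42 of those lay above the filter on dim genes. Those 42 had a median r of 0.65 with the probe set used, above 0 in 41. The radiation main effect had the same sign in 29 of the 42. For Anln the second probe set, dimmer, had a main effect of 0.13, against 0.25 at the one used.

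Among the other mitosis genes and the G1/S genes single genes were called, at shares near or below those of all genes. In radiation against control, 1.16% of the other mitosis genes and 2.94% of the G1/S genes were called, against 2.39% of all genes. In the radiation main effect the shares were 4.65% and 8.82%, against 7.26% of all genes. Of 86 other mitosis genes tested, 51 had higher means in radiation than in control tumors, with a median of 0.05, and 1 was called, Gtse1, a p53-binding protein of G2 and mitosis, which rose by 0.53 ± 0.08 (adjusted p = 0.0139, limma). In the radiation main effect Gtse1 rose by 0.31 ± 0.06 and Pimreg by 0.24 ± 0.06, while Esco2, which acetylates cohesin in S phase, fell by 0.43 ± 0.11 and Cenpk, of the inner kinetochore, fell by 0.25 ± 0.07. Of 34 G1/S genes 13 had higher means in radiation than in control tumors, with a median of -0.06, and Ccnd2, which encodes cyclin D2, rose by 0.47 ± 0.09 (adjusted p = 0.0310, limma). In the main effect Ccnd1 (0.32 ± 0.06), Ccnd2 (0.32 ± 0.07) and Tk1, thymidine kinase (0.24 ± 0.06), rose. With each tumor left out in turn, the main effect calls of Gtse1 and Ccnd1 held without every one of the 12. Those of Ccnd2 were lost without 3, of Tk1 without 9, of Cenpk without 10, and of Esco2 and Pimreg without 11.

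Among 26 regulators of the programme tested, E2f8, a repressor among E2F factors, rose by 0.45 ± 0.09 in radiation against control (adjusted p = 0.0264, limma). It was the only regulator called there (3.85%), against 2.39% of all genes. Under 1D11 it did not rise, with 10.99, 10.66 and 10.96 in 1D11_radiation and 10.97, 11.07 and 10.998 in 1D11 tumors. Its interaction, -0.59, was the lowest of the regulators, and none of them was called in the interaction. Wee1, the kinase that holds CDK1 inactive, had 0.31 ± 0.11 (adjusted p = 0.182), Mybl2, which encodes B-MYB, 0.14 ± 0.20, and the MuvB genes Lin9 and Lin54 -0.38 ± 0.15 and 0.23 ± 0.16. Without both muscle-rich tumors Lin9 had -0.14, and Lin54 had 0.57 and was called (adjusted p = 0.0197, limma). E2f8 had 0.42 without them, at an adjusted p of 0.0611. Of 5 CDK inhibitors tested, Cdkn2c, which encodes p18, fell by 0.64 ± 0.12 in radiation against control (adjusted p = 0.0264, limma) and by 0.66 ± 0.09 in the main effect. Its log2 intensities were 9.67, 9.59 and 9.62 in 1D11_radiation tumors, 9.47, 9.53 and 9.63 in radiation tumors, 10.44, 10.34 and 10.16 in 1D11 tumors and 10.48, 10.08 and 9.98 in control tumors. Every irradiated tumor thus lay below every other tumor, as in 2.41% of all genes. Cdkn1b, which encodes p27, fell by 0.24 ± 0.06 in the main effect (adjusted p = 0.0299, limma), a call lost without 8 of the 12 tumors. Of the 5 inhibitors, 1 (20%) was called in radiation against control, against 2.39% of all genes. In the main effect 2 (40%) were called, against 7.26%. Cdkn1a, which encodes p21, had 0.79 ± 0.27 in radiation against control (adjusted p = 0.151, limma), and without control replicate 1 it was called, at 0.35 (adjusted p = 0.0283). Without control replicate 3 its change was 1.06 (adjusted p = 0.0783, limma). Its log2 intensity was 12.51 to 12.58 in all 6 irradiated tumors and 12.004 to 12.28 in the others, apart from 10.9 in control replicate 1. Irradiated tumors lay fully higher in 1.95% of all genes.

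**Figure D5:**
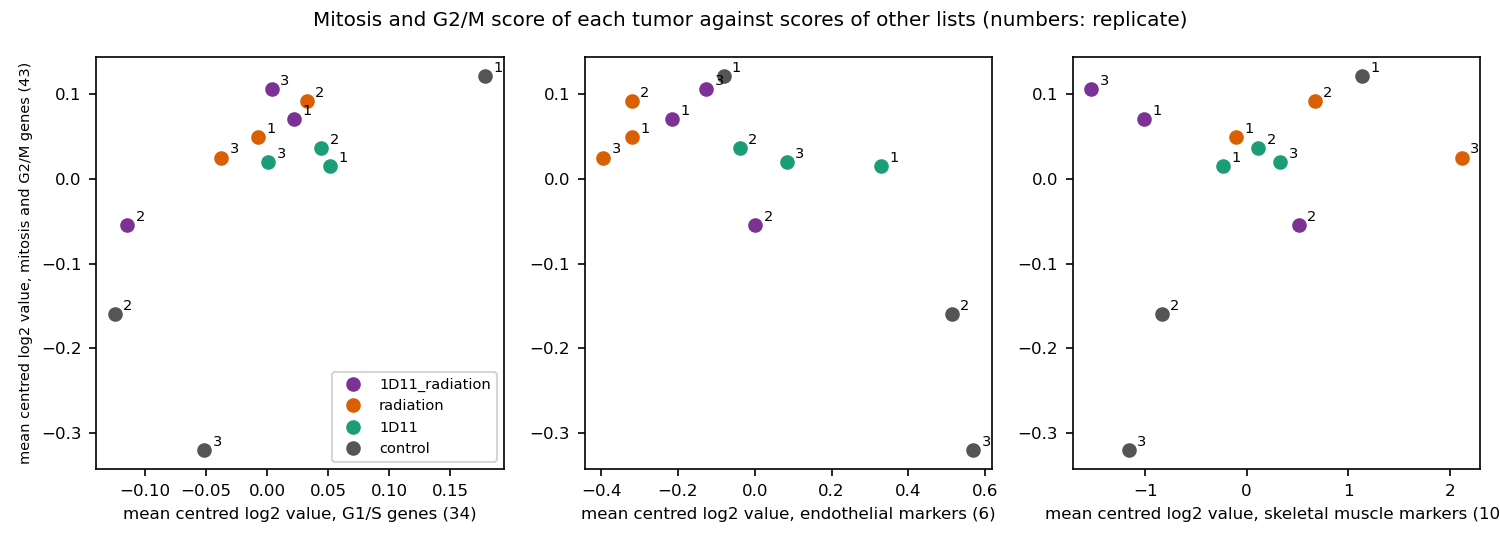
Mean centred log2 value of the 43 members in each tumor, on the vertical axis, against that of 34 G1/S genes, 6 endothelial markers and 10 skeletal muscle markers. Control replicates 2 and 3 combine the lowest member values, -0.16 and -0.32, with the highest endothelial values, 0.51 and 0.57.

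Markers of other cell types followed the members' mean across tumors to differing degrees. All 6 endothelial markers were measured and none was at 0, and their mean centred log2 value was -0.22, 0.00 and -0.13 in 1D11_radiation tumors, -0.32, -0.32 and -0.40 in radiation tumors, 0.33, -0.04 and 0.08 in 1D11 tumors and -0.08, 0.51 and 0.57 in control tumors. Against the members' mean, Pearson r was -0.79 and Spearman rho -0.71 over 12 tumors. Without control replicates 2 and 3, the tumors farthest from the median, r was -0.35, so the relation rests on those tumors. For the G1/S genes r was 0.63 (rho 0.66) and 0.74 without the same tumors, and it was 0.83 within groups. For fibroblast markers r was -0.48 (rho -0.48), -0.40 without those tumors, and -0.83 over the 9 treated tumors. For macrophage markers it was 0.57 (rho 0.24), and -0.44 without them, and for skeletal muscle markers 0.34 (rho 0.20), and -0.21 without them. For T and cytotoxic cells it was 0.38 (rho 0.17), for mast cells 0.18 (rho 0.03) and for carcinoma markers 0.08 (rho 0.10). For keratinocytes it was 0.0025 (rho -0.55), for neutrophils -0.0019 (rho -0.20) and for adipocytes -0.07 (rho -0.34). Without control replicates 2 and 3, r was -0.46 for T and cytotoxic cells, -0.21 for mast cells and -0.05 for carcinoma markers. For keratinocytes, neutrophils and adipocytes it was then -0.30, -0.21 and -0.38. These relations, over 12 tumors that include the treated groups, are given without a test, and the part of other cell types in the changes above was not tested. With the skeletal muscle value as a covariate the median in radiation against control was 0.12 and Anln and Cep55 remained called in the main effect.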

How the data were processed

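Gene expression in 12 LLC tumors was measured on 1-color Affymetrix arrays, per the labels' protocols from 6 µg of total RNA per tumor as biotin-labelled cRNA. The deposited values are intensities per probe set (45101) on a linear scale, from 7.40 to 30798. How the authors summarised and normalized probes is not given in the sources used here. Since array medians and sorted values lay close together, the authors' values were used as normalized and taken to log2. The largest gap in sorted log2 values, 0.129, was not small beside the members' median changes. Background per array is not known, and 3 arrays per group limit the precision.

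The probe table named 34945 probe sets with 1 symbol, 932 with several and 9160 with none. Each gene was read at its brightest probe set. Genes in the lowest 30 percent of means, below log2 5.37, were not tested. The tests used limma 3.58.1 under R 4.3.3 (a group-means lmFit on all 12 arrays, then eBayes, two-sided; 8 residual and 3.11 prior degrees of freedom), and calls required an adjusted p (Benjamini-Hochberg, 12735 genes) under 0.05. The fit was tested on simulated data. The value of a list in 1 tumor averages the centred log2 values of its genes.

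For each comparison, members named are those called, otherwise the 3 with the smallest p per direction. Other members are named by role with their change. Values per tumor are given for called members and for the member with the smallest p in each role. Genes outside the list are named where called, or as regulators and CDK inhibitors from the lists, and the 10 most correlated are named. The members, lists, tests and alternatives were chosen with earlier results of these data known. Alternatives covered normalization, probe set choice, filter, log offset, array weights, variance trend, the groups fitted, a replicate block, the muscle value as covariate, and each tumor left out.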

Additional observations from a re-analysis of the deposited data

How the results depend on the processing

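In radiation against control, where no member was called, 2 were called with log2(intensity + 32), against 2.87% of all genes, and 2 with an intensity trend and robust variances, against 3.05% (Anln and Ckap2 each time), 13 with array weights, against 6.99%, and 10 with both muscle-rich tumors left out, which moved the median change to 0.30. Leaving out 1 tumor at a time gave 0 to 12. In 1D11_radiation against 1D11, array weights gave 1 (Cep55), against 11.7% of all genes. In the radiation main effect, with 2 called, array weights gave 13, against 17.1% of all genes, both muscle-rich tumors left out gave 12, against 11.1%, and leaving out 1 tumor at a time gave 0 to 8. With the mean of probe sets Cep55 and Tacc3 were called, and Anln had 0.19 (adjusted p = 0.0902, limma). Outside the list, the calls of Gtse1, Cdkn2c, E2f8 and Ccnd2 in radiation against control were lost without 1, 2, 4 and 5 of the 12 tumors. The cause was not tested in any of these.

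Replicate numbers did not pair the tumors: over 18 pairs with the same number, r of the deviations from group means ran from -0.31 to 0.27, and 3 were over 0.1. With the replicate number as a block, 1 member was called in the radiation main effect (Cep55), and Anln had an adjusted p of 0.0577. Over all genes, radiation against control had 304 calls, with 890 under array weights, 569 without the muscle-rich tumors, 499 with the muscle value as covariate, 193 with the mean of probe sets and 6 with only the groups compared. The radiation main effect had 925, with 2176 under array weights and 1410 without the muscle-rich tumors. 1D11_radiation against 1D11 had 10, with 1491 under array weights. With quantile normalization 28 of 43 members, in place of 36, were higher in the 1D11 main effect, with a median of 0.04 in place of 0.07. The members' median was then 0.10 in place of 0.14 in 1D11 against control, and 0.15 in place of 0.18 in radiation against control. Over all genes the median in 1D11 against control was -0.00041 in place of 0.04.

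Both called members kept their direction under every alternative run, and over all 43 members the number that changed sign under at least 1 alternative lay between 13, in radiation against control, and 29, in 1D11_radiation against radiation, with at most 13 under a single alternative. Of the called genes and the 3 members with the smallest p per direction in each comparison, 9 uncalled ones did. That count leaves out the other members of each comparison. Among these, 10 turned negative in radiation against control without control replicate 3: Cdca8 (-0.018), Cenpe (-0.13), Ect2 (-0.038), Hmmr (-0.031), Incenp (-0.0068), Ndc80 (-0.058), Nek2 (-0.054), Nuf2 (-0.047), Spc25 (-0.023) and Top2a (-0.058). In radiation against control, Kif11 (main value -0.10) was 0.062 when probe sets were averaged, 0.092 under array weights and 0.16 without the muscle-rich tumors, and between -0.23 and 0.069 with 1 tumor left out. In 1D11 against control, Bub1 was 0.22, 0.081 and 0.13 under the same 3 settings, and between -0.19 and 0.13 with 1 tumor left out. Ect2 was 0.021 with array weights, 0.11 without the muscle-rich tumors, and between -0.20 and 0.11 with 1 left out. Foxm1 in 1D11_radiation against 1D11 lay between -0.18 and 0.014 with 1 left out. Racgap1 in 1D11_radiation against radiation was -0.0040 without the muscle-rich tumors, and between -0.0040 and 0.16 with 1 left out. In the interaction, where Racgap1 and Nek2 were the 2 positive members, averaged probe sets, array weights and the muscle-rich tumors left out gave -0.062, -0.027 and -0.16 for Racgap1 and -0.028, -0.12 and -0.15 for Nek2. With 1 tumor left out, Racgap1 lay between -0.057 and 0.16 and Nek2 between -0.10 and 0.15. In the radiation main effect, Kif11 was 0.0071, 0.017 and 0.021 under those 3 settings. Array weights gave 0.0033 for Ndc80 and 0.036 for Spc25, which was 0.018 without the muscle-rich tumors. With 1 left out, Ndc80 lay between -0.12 and 0.021 and Spc25 between -0.098 and 0.017. In the 1D11 main effect, Bub1 was 0.11 when probe sets were averaged and 0.011 under array weights, and between -0.15 and 0.0084 with 1 left out, and Bub1b was 0.021 with array weights and 0.030 without the muscle-rich tumors. The medians near 0 of both 1D11_radiation comparisons also changed sign with 1 tumor left out, that against radiation under array weights and the muscle covariate too. The cause was not tested.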
